A study of Mus musculus with 931 samples.

Results

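The cells described here are 65 single β cells from the pancreas of Ins1-RFP mice at postnatal day 9 (P9). They were taken as positive for the red fluorescent protein that the Ins1-RFP reporter places in insulin-producing cells, in 3 labelled batches: 23 manually-picked cells in batch 1, 23 FACS-sorted cells in batch 2 and 19 manually-picked cells in batch 3. The rule took the P9 cells labelled Ins1-RFP+ with no second hormone and no enrichment for proliferating cells, so a batch of 13 enriched P9 cells and 3 P9 cells labelled positive for Sst as well were left out. The 65 cells are part of 917 single cells in the table and of 538 unselected β cells with one hormone. The other stages used beside them carry the same reporter: 3 batches at embryonic day E17.5, 5 batches (88 cells) at P3, 3 batches (57 cells) at P15 and 5 batches at P60. The 45 α cells at P9, from Gcg-Cre; Rosa-RFP mice, in which the glucagon promoter drives Cre and so marks the cells, served as the background for β-cell genes, and 2 bulk libraries of sorted Ins1-RFP+ cells at P9 were set beside the single cells. The labels name the batch but no animal, so the batch was taken as the replicate, and p-values speak only to how far labelled batches scatter, part of which may be technical.

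Each cell was sequenced with the Smart-seq2 protocol, which reads full-length cDNA and tags no molecules. A cell held 638135 to 1781309 gene reads (median 1136989) and reads of 6502 to 9196 genes (median 7516), and spike-in RNA made up 1.52% to 4.08% of the reads. Reads without molecular tags are not independent molecules, so intervals and floors cover counting error only. Levels within P9 are given as TPM, a transcript's share of all transcripts scaled so that each cell has the same total, which corrects for gene length and so allows genes to be compared. The single FACS-sorted batch at P9 is batch 2, so the collection method and that batch cannot be told apart at this stage.

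β cells make insulin as proinsulin, fold it in the endoplasmic reticulum (ER), cut it with prohormone convertases inside dense-core granules and release it when glucose metabolism closes ATP-sensitive potassium channels. In rodents this machinery is refined over the weeks after birth, when β cells lose genes of the fetal endocrine state, gain Ucn3 (the peptide urocortin 3, a marker of mature mouse β cells) and slow their division. P9 lies before weaning, when pups still live on milk.

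The label matched its markers. Ins1, Ins2 and Ucn3 had at least 10 reads in 65 of 65 cells, and all 8 genes of the β-cell marker list were read in every cell. Because the cells were taken by an Ins1 reporter and chosen for having no second hormone, their insulin level and their low glucagon, somatostatin and pancreatic polypeptide levels are a description of the choice. Gcg was read in 26 cells, reached 10 TPM in 3 and peaked at 88.8 TPM, against a mean of 514179 TPM in the α cells. Sst was read in 31 cells and passed 100 TPM in 1 (519 TPM). Ppy, which encodes pancreatic polypeptide, was read in 35 cells and passed 100 TPM in 7, of which 5 were in batch 1, 2 in batch 2 and 0 in batch 3, with a maximum of 1138 TPM. In the other direction, insulin reads made up a median of 0.00132% and at most 0.0537% of the reads of an α cell. That is the background for these genes, measured the same way.

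Among the lists of other endocrine cells, the 5 genes of pancreatic polypeptide cells summed to 2078, 641 and 2118 TPM by batch. Pyy alone held 1668, 301 and 1764 TPM of this. The 10 α-cell genes summed to 326, 447 and 289 TPM, of which Ttr held 294, 416 and 206 TPM. The δ-cell list summed to 65.55, 28.9 and 184 TPM and the ε-cell list to 43.8, 11.8 and 48.6 TPM. Markers of non-endocrine cells were low, apart from some duct genes. The summed level of 15 acinar enzyme genes had a median of 0 TPM per cell and a maximum of 1732 TPM, and it averaged 157, 80.6 and 53.0 TPM in batches 1, 2 and 3, with 1 of the 15 genes at 0 in all cells. Endothelial genes summed to at most 39.5 TPM in a cell (3 of 7 genes at 0), mesenchymal genes to at most 10.5 TPM (2 of 8 at 0), immune genes to at most 2.82 TPM (5 of 7 at 0), erythroid genes to at most 41.5 TPM (1 of 6 at 0) and Schwann-cell genes to at most 39.1 TPM (2 of 6 at 0). The 9 duct genes summed to 251, 171 and 337 TPM by batch, with 46.8, 207 and 651 TPM in the lowest, median and highest cells, and 3 of the 9 were read in every cell. Most of that sum came from the keratins Krt18 (74.4, 60.8 and 109.6 TPM) and Krt7 (50.6, 38.0 and 63.2 TPM) and the epithelial adhesion gene Epcam (78.4, 57.1 and 107 TPM), while the duct-defining genes Sox9 and Cftr averaged 0.350 and 0.00965 TPM. In the bulk libraries the acinar enzyme Cel stood at 5832 and 11014 CPM (reads scaled to a common library total) and Ctrb1 at 13500.0 and 18031 CPM, so the bulk libraries held acinar RNA that the single cells largely lacked.

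Promoter sequence is shown for the hormone genes on which the levels below turn, Ins1, Iapp and Ucn3, because insulin gene promoters are known for E boxes, bound by NeuroD1 with its partners, and for A boxes, bound by Pdx1. Each line gives the 250 bases upstream of the RefSeq start site, from the RefSeq promoter table (GRCm38.p6), 5′ to 3′, with E boxes (CANNTG) and A box cores (TAAT) in capitals on either strand, so that an A box on the other strand reads ATTA. Adjacent matches can overlap. The window of Ins1 is chr19:52264047-52264296 on the plus strand, that of Iapp chr6:142298175-142298424 on the plus strand and that of Ucn3 chr13:3945350-3945599 on the minus strand.
Ins1: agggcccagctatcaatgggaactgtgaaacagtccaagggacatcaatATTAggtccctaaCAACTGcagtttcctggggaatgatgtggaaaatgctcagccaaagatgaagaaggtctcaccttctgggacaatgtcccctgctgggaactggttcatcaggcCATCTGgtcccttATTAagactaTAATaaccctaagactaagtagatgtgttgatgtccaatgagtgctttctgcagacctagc
Iapp: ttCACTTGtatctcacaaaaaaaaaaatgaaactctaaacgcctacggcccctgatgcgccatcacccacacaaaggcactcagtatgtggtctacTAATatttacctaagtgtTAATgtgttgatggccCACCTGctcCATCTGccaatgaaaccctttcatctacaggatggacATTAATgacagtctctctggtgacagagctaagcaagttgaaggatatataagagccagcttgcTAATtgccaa
Ucn3: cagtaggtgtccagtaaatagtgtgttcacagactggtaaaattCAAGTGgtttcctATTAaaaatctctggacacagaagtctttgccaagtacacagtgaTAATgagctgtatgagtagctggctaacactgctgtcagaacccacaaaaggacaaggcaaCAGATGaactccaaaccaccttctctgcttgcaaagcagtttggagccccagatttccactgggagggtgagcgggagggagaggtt
The Ins1 window held 2 E boxes and 3 A boxes, the Iapp window 3 and 5, and the Ucn3 window 2 and 2. Over 32817 promoter windows of the same length, 66.2% held at least 1 E box, 31.8% at least 2 and 12.2% at least 3, and 30.8% held at least 2 A boxes, 17.3% at least 3 and 5.55% at least 5. These are matches of letters, frequent across the genome, and not bound sites.

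Insulin transcripts held the largest share of each cell's RNA. Ins2 (the mouse counterpart of insulin in other mammals, on a long gene model at chr7:142678656-142743381, minus strand) averaged 514175, 520863 and 462019 TPM in batches 1, 2 and 3, and Ins1, the rodent-specific copy (chr19:52264297-52265476, plus strand), averaged 173947, 155199 and 160151 TPM. The means over batches were 499019 ± 32217 TPM for Ins2 and 163099 ± 9716 TPM for Ins1 (SD, n = 3 batches). In every cell Ins2 exceeded Ins1, by a ratio of 1.96 to 4.46 (median 3.09). Together they took 30.8% to 57.9% of a cell's gene reads (median 46.2%), and the 10 most abundant genes took 42.3% to 69.0%.

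Next in abundance was Iapp (chr6:142298423-142303961, plus strand), the amyloid peptide stored and released with insulin, at 40359, 56505 and 55051 TPM by batch and 50638 ± 8932 TPM over the 3 batches, against 4166 TPM in α cells. Chga, the granule protein chromogranin A, stood at 5129.9, 5299 and 4749.9 TPM, G6pc2, the islet glucose-6-phosphatase, at 1478, 1534 and 1399.5 TPM, and Scg2, secretogranin II, at 1391, 1231 and 1887 TPM. Scg2 was the higher of the last pair only in batch 3, so their order is not resolved. With the insulins and Iapp these were the 6 hormone and granule genes among the 12 rows with the highest mean. The other 6 of those 12 were Yam1 and 5 rows named RP23-8J15 (1467 to 6196 TPM), whose values are uncertain: Yam1 shares exons with AY036118, and the RP23-8J15 models lie on chromosome 1 near 24.61 Mb in a nuclear copy of mitochondrial DNA. Because TPM is a share of the whole, insulin lowers every other value: with both insulin genes left out of the total, Iapp read 169821 TPM, Chga 17343 TPM, G6pc2 4926 TPM and Ucn3 1164 TPM.

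Detection fell quickly below the abundant genes. Of 19365 genes with a read in any of the 65 cells, 957 had one in every cell, 7220 in at least 33 cells and 2677 in exactly 1 cell. Requiring 10 reads left 616 genes in every cell and 5206 in at least 33 cells. By mean level, 8597 of the 19365 lay below 1 TPM, 3600 reached 10 TPM, 321 reached 100 TPM and 17 reached 1000 TPM.

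Ucn3 (chr13:3940688-3945349, minus strand) was already present in each P9 cell. Its batch means were 278, 424 and 355 TPM and its mean was 352 ± 72.8 TPM (SD, n = 3 batches). The lowest, median and highest cells held 31.5, 239 and 1056 TPM in batch 1, 87.1, 411 and 740.1 TPM in batch 2 and 21.3, 326 and 1544 TPM in batch 3. The 3 ranges overlapped over most of their length, 59 of 65 cells held at least 100 TPM, and none of the 45 α cells had a read of the gene, which allows at most 6.67% of α cells. The 5 genes whose levels ran most like Ucn3 from cell to cell within batches had mean Spearman coefficients of 0.51 for Cox7b, 0.50 for Pop5, 0.47 for Inpp4a and Ppp1r1a and 0.45 for Atp5d. By batch they ran from 0.37 to 0.72 for Cox7b, 0.32 to 0.59 for Inpp4a, 0.32 to 0.65 for Ppp1r1a and 0.31 to 0.68 for Atp5d, and that of Pop5 was 0.13 in batch 1 against 0.71 and 0.68 in batches 2 and 3. These 5 were the highest in a search of the genes with at least 20 CPM in each batch, 3937 before some symbols were left out. How high the top of such a search runs by chance was not tested, so no link with Ucn3 is drawn from them. Insulin reads stayed in the CPM total, and the part of the insulin share was not tested. The coefficients are descriptions over 65 cells that share their libraries' depth.

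**Figure D1:**
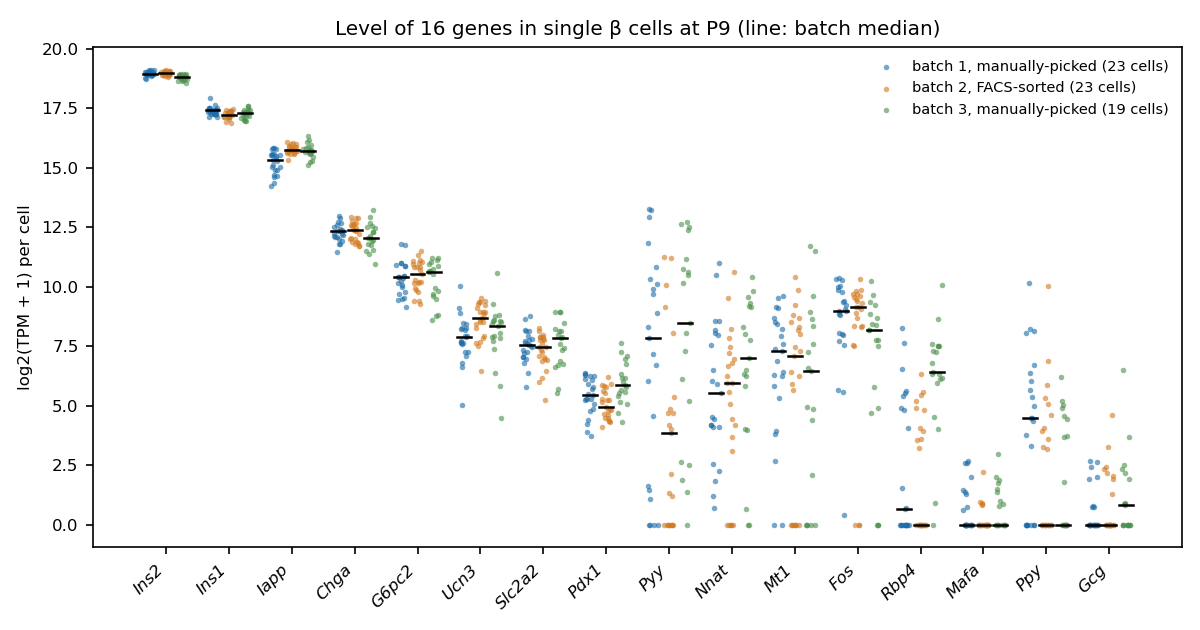
Levels of 16 genes in each of the 65 P9 β cells, as log2(TPM + 1) on the vertical axis, with the cells of each batch in their own colour and a line at each batch median. Ins2 and Ins1 form tight bands at the top, Ucn3 spreads from 21.3 to 1544 TPM, and Pyy, Nnat and Mt1 reach from 0 to over 1000 TPM.

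The β-cell function list (20 genes) was read in full, 16 of the 20 in every cell, with a median of 247 TPM. The glucose transporter Slc2a2 averaged 199.7, 172 and 234 TPM, the zinc transporter Slc30a8, which loads granules, 537, 489 and 669.9 TPM, the GLP-1 receptor Glp1r 182, 139 and 167 TPM and the ER oxidase Ero1lb 228, 289 and 358 TPM. The prolactin receptor Prlr, whose exons overlap Gm21973, was lower at 17.8, 25.5 and 18.4 TPM. Mafa, a late β-cell transcription factor, was the exception in the single cells: its batch means were 1.06, 0.303 and 1.09 TPM, 23 cells had a read, 0 cells had 10 reads and the highest held 6.82 TPM, while in CPM the batches held 1.21, 0.398 and 0.935 and the bulk libraries of the same stage 104 and 215. The reason for this gap was not tested, so the single-cell values alone do not show that Mafa was low at P9.

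Of 16 granule and processing genes, 13 were read in every cell (median 398 TPM). The exopeptidase Cpe, which trims the ends of cut hormones, was among the highest at 1179.6, 829.8 and 1255 TPM, followed by Scg5, the chaperone of convertase 2, at 803, 629 and 782 TPM. The convertase genes followed, Pcsk2 (its exons overlap Pcsk2os1 and Pcsk2os2) at 387, 329.5 and 463 TPM and Pcsk1 at 201, 126 and 238 TPM, the latter against 4.41 TPM in α cells. Among 25 exocytosis genes, all read and 12 in every cell, the calcium-sensor relative Syt13 held 134, 104 and 175 TPM, the granule-docking gene Sytl4 105, 98.8 and 172 TPM and the vesicle SNARE Vamp2 88.4, 66.8 and 101 TPM. The plasma-membrane SNARE Snap25 stood at 30.1, 25.5 and 37.6 TPM, and Cplx1, a complexin, was read in only 2 cells.

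The glucose sensing and electrical list (19 genes), the glycolysis list (15) and the mitochondrial list (20) had medians of 27.8, 19.3 and 26.5 TPM, below the 398 TPM of the granule list, though single members such as G6pc2 lay above that median. The subunits of the ATP-sensitive potassium channel were unequal in level, Abcc8 at 89.7, 70.5 and 124 TPM and Kcnj11 at 11.6, 8.46 and 15.0 TPM, and the potassium channel Kcnk16 exceeded both at 213, 170.4 and 208 TPM. In glycolysis, pyruvate kinase Pkm held 294, 198 and 267 TPM and Aldoa, whose exons overlap Fam57b, 165, 115 and 162 TPM, while the low-Km hexokinase Hk1 was not read in any cell. Of 20 mitochondrial genes, all read, the malate dehydrogenase Mdh2 led at 122, 100.1 and 132 TPM, and pyruvate carboxylase Pcx stood at 26.3, 21.5 and 35.1 TPM against 3.54 TPM in α cells.

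Genes that β cells are known to keep off, called disallowed genes, summed to 27.7, 16.2 and 19.1 TPM by batch over 21 genes. Of these, 8 had no read in any of the 65 cells (against 21459 of the 40824 genes in the table), among them Slc16a1 (the lactate and pyruvate carrier), Hk1, Hk3, Acot7, Pdgfra, Fcgrt and Arap2. A gene with 0 of 65 cells could still be read in up to 4.62% of such cells. Ldha, lactate dehydrogenase A, was read in 15 cells, with 10 reads in 1 and a maximum of 14.4 TPM. The highest of the list was Oat, ornithine aminotransferase, at 20.1, 12.8 and 14.2 TPM, read in 37 cells.

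Of 21 islet transcription factors, 19 were read and 5 were read in every cell. Mlxipl, the glucose-sensing factor ChREBP, whose exons overlap Gm43500, was highest at 131, 110.0 and 185 TPM, then Neurod1 at 93.4, 90.1 and 118 TPM, Isl1 at 53.1, 47.4 and 76.5 TPM, Pax6 at 50.3, 48.5 and 72.7 TPM and Pdx1 at 46.8, 35.4 and 74.1 TPM. Nkx6-1, which holds β-cell identity, averaged 37.9, 39.1 and 57.3 TPM and Nkx2-2 18.7, 12.3 and 26.4 TPM. Neighbours in this order swapped places between batches: Pax6 exceeded Isl1 in batch 2 and Pdx1 exceeded Pax6 in batch 3, so the order of these 3 is not resolved. The factor Irx1 had no read, and Irx2 was read in 1 cell, while Mnx1, a β-cell factor with 10 reads in 0 of the α cells, stood at 11.0, 2.65 and 5.72 TPM.

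Protein folding genes were abundant, with 23 of 23 read and a median of 116 TPM. The ER chaperone Hspa5 averaged 507, 477 and 471 TPM, the disulfide isomerase P4hb 305, 301 and 384 TPM and Sdf2l1, a chaperone cofactor induced by ER stress, 203, 256 and 138 TPM, while Ddit3, the stress factor CHOP, stood at 16.0, 12.4 and 11.4 TPM. Of 17 cholesterol synthesis genes, all read, Fdps, farnesyl diphosphate synthase, held 35.8, 30.8 and 39.4 TPM. Among 18 antigen presentation and interferon genes the median was 2.03 TPM, with the class I genes H2-K1 at 70.0, 75.9 and 126 TPM and H2-D1 at 103, 59.7 and 91.8 TPM, and with Ifit1 and Nlrc5 at 0. In the thyroid and retinoid list of 15 genes, 10 were read, and Dio1, the deiodinase that activates thyroid hormone, averaged 11.5, 25.3 and 34.0 TPM in 39 cells.

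Genes of the immature endocrine state were read in some cells and not in others, as were most detected genes. All 16 were read, 6 of them in most cells and none in every cell, with a median of 1.85 TPM. Of the 19365 genes with a read in any cell, 7220 were read in most cells and 957 in every cell. These counts therefore do not set the list apart. Rbp4, the plasma retinol carrier, averaged 35.1, 13.9 and 163 TPM and passed 100 TPM in 11 cells, 2 in batch 1, 0 in batch 2 and 9 in batch 3. It was lowest in the FACS-sorted batch 2 and highest in batch 3, so its mean rests on which batch is read. Neuropeptide Y, Npy, was at 0 in 50 cells and passed 100 TPM in 5 (0, 3 and 2 by batch), with 3888 TPM in the highest, and the 5 highest cells held 98.6% of its summed TPM. Neurog3, the factor that starts the endocrine lineage, was read in 3 cells and Gast, which encodes gastrin, in 7.

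Cell-to-cell variation was compared among 3937 genes with at least 20 CPM in each batch. For each gene the squared coefficient of variation (CV, the SD over the mean across cells) was set against genes of similar level, and the distance is the log2 ratio to their running median, averaged over batches. Genes among the most variable 10% in each of the 3 batches numbered 61 (1.55%). The distances had Spearman coefficients of 0.462, 0.459 and 0.434 between pairs of batches, so a gene's variation was partly shared between batches. Against the spike-ins, which carry only technical noise, 78.8%, 71.6% and 79.3% of genes varied more in batches 1, 2 and 3.

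The insulin genes varied little for their level, and Ins2 had the lowest distance of all genes considered. In TPM, the CV of Ins2 across cells was 6.46%, 5.14% and 8.03% by batch and that of Ins1 13.0%, 10.7% and 13.8%. The distances, which were computed from CPM, were −3.52 for Ins2, −2.46 for Ins1 and −1.74 for Iapp. Both insulin genes are a large part of a total that is the same in each cell, which limits how far they can vary. Their joint share of reads ran from 30.8% to 57.9%. Few genes of such a level were there to compare them with. Pcsk2 and Cpe also varied little (distances −1.18 and −1.06), and the median distance of the granule list was −0.30 against 0.01 over all genes considered. Ucn3 varied more than most, at 1.58, against a 90th percentile of 0.62, without entering the 61.

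**Figure D2:**
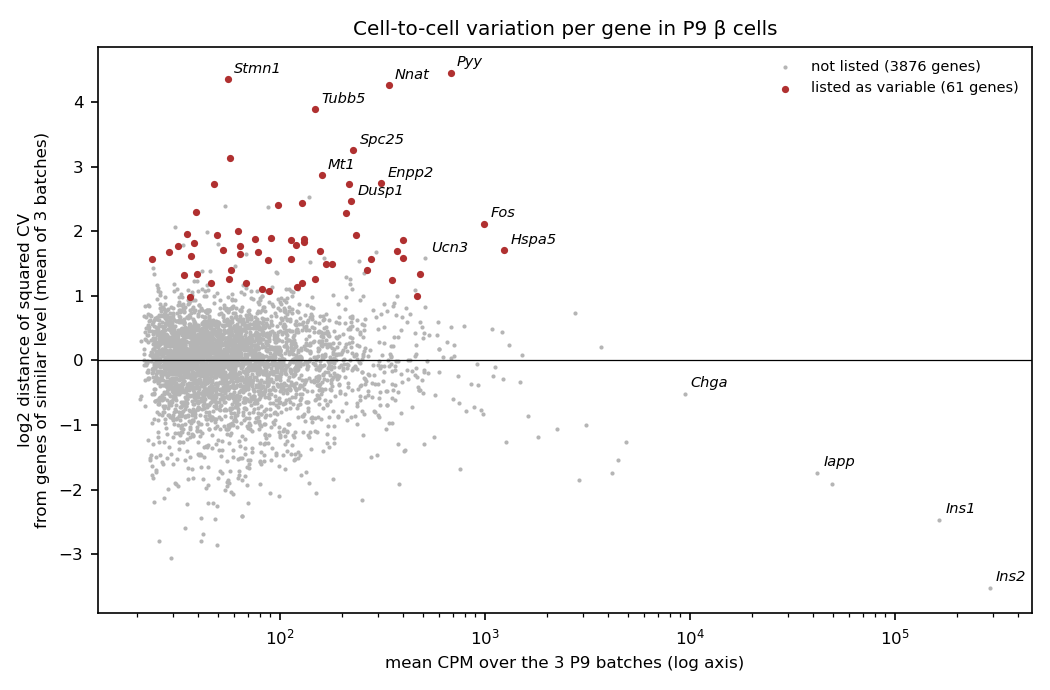
Cell-to-cell variation of 3937 genes, with the mean CPM over the 3 P9 batches on a log axis and the log2 distance of the squared CV from genes of similar level on the vertical axis, where 0 is the running median. The 61 listed genes (red) include Pyy, Stmn1 and Nnat above 4, and Ins2 lies lowest at −3.52.

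Among the 20 most variable genes the peptide gene Pyy stood first and the imprinted gene Nnat followed Stmn1. Pyy, the gut and islet peptide YY, had a distance of 4.45, and the lowest, median and highest cells held 0, 229 and 9808 TPM in batch 1, 0, 13.3 and 2458 TPM in batch 2 and 0, 358 and 6726 TPM in batch 3. It was at 0 in 13 cells (4, 8 and 1 by batch) and at or above 1000 TPM in 19 (7, 3 and 9), so the batches overlapped, with fewer high cells in batch 2. All 45 α cells had reads of Pyy, at a mean of 10809 TPM. Nnat, which encodes neuronatin and whose exons overlap Gm23134, had a distance of 4.27, with 0.610, 44.8 and 2069 TPM in batch 1, 0, 60.6 and 1572 TPM in batch 2 and 0, 129 and 1352 TPM in batch 3. It passed 100 TPM in 27 cells and 1000 TPM in 4, and the 5 highest cells held 47.2% of its summed TPM.

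Pyy and Nnat did not rank the cells alike. Their Spearman coefficients were −0.06, 0.15 and −0.31 in batches 1, 2 and 3. The coefficients of Ucn3 with Pyy were −0.35, −0.28 and −0.12, all weak over 19 to 23 cells.

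Several of the 20 genes were high in few cells. Stmn1, a microtubule-destabilising protein, had a distance of 4.36: 48 cells held no read, 5 passed 100 TPM, and the top 5 cells held 95.4% of the summed TPM. These 5 cells were the 5 that are counted as dividing below. Tubb5, a tubulin (3.89), Hmgb2, a chromatin protein (3.13), and Smc4, a condensin subunit (2.72), followed, with 54.0%, 79.1% and 68.5% of their summed TPM in 5 cells. For Hmgb2 these were the same 5 cells, and for Tubb5 and Smc4 only in part. Spc25, a kinetochore gene (3.25), was read more widely: it had 10 reads in 59 of 65 cells and batch means of 129, 133 and 116 TPM. Its 5 highest cells were again the 5 dividing cells, and they held 39.2% of its summed TPM.

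Metallothioneins, small proteins that bind zinc and copper, varied together. Mt1 (chr8:94179082-94180327, plus strand) had a distance of 2.87 and batch means of 229.8, 249.7 and 469 TPM. The lowest, median and highest cells held 0, 155 and 777 TPM in batch 1, 0, 134 and 1369 TPM in batch 2 and 0, 87.8 and 3365 TPM in batch 3. It was at 0 in 14 cells (2, 7 and 5 by batch), passed 100 TPM in 33 and 1000 TPM in 3, and 8 of 45 α cells had a read. Mt2 (chr8:94172664-94173568, plus strand, exons overlapping Gm45774) had batch means of 60.4, 47.7 and 118 TPM and was at 0 in 26 cells. The Spearman coefficients between both genes were 0.84, 0.75 and 0.81 by batch. Both lie side by side on chromosome 8, and their promoters are shown because metal response elements, the sites bound by the zinc-sensing factor MTF1, are what these genes are known for. The 250 bases upstream of the start sites, from the same RefSeq table, are chr8:94178839-94179088 for Mt1 and chr8:94172368-94172617 for Mt2, both on the plus strand, and capitals mark the core TGCACNC or TGCGCNC on either strand.
Mt1: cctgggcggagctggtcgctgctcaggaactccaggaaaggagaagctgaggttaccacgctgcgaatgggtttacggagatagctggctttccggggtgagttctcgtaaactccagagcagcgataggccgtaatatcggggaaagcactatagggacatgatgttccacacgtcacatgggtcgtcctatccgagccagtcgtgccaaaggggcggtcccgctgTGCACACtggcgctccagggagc
Mt2: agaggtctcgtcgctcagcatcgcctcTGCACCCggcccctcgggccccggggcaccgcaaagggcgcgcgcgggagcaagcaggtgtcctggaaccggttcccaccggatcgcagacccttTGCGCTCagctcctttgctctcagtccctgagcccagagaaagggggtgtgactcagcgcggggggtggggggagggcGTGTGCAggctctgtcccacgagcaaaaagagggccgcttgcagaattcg
The Mt1 window held 1 such core and the Mt2 window 3. Only these windows were searched, so cores outside them were not counted, and the Mt2 window ends upstream of the gene start given above. Of the 32817 windows, 21.4% held at least 1 and 1.26% at least 3.

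Immediate early genes are switched on within minutes of a stimulus. Of the list of 17 immediate early and heat shock genes, 10 reached 20 CPM and 8 of these were among the 61, which is a description of the rows that reached that level, where 61 of 3937 were chosen over all genes. Fos averaged 583, 533 and 321 TPM, with 0.330, 505 and 1336 TPM in batch 1, 0, 570.3 and 1286 TPM in batch 2 and 0, 292 and 1196 TPM in batch 3, was at 0 in 6 cells (0, 3 and 3) and passed 500 TPM in 30 (13, 13 and 4). Its cells were lower in batch 3, though the 3 ranges overlapped. Egr1, a zinc-finger factor of the same response, averaged 99.5, 105 and 65.8 TPM and the phosphatase Dusp1 (exons overlapping Ergic1) 152, 67.2 and 74.6 TPM. Fos and Egr1 had coefficients of 0.68, 0.41 and 0.50 by batch, and Fos and Jun (exons overlapping Junos) 0.75, 0.47 and −0.05. Of the folding genes, Hspa5 and Creld2 had distances of 1.71 and 1.69 and rank coefficients of 0.53, 0.58 and 0.59 with each other.

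The rest of the 20 were of mixed function. Enpp2, the secreted enzyme autotaxin (exons overlapping Gm26684), averaged 117, 43.6 and 119 TPM, Gpx3, a secreted glutathione peroxidase, 164, 27.8 and 222 TPM and Txnip, a glucose-induced thioredoxin inhibitor (exons overlapping Gm15441), 46.1, 19.3 and 73.9 TPM. All 3 were lowest in batch 2, and Gpx3 was far higher in the α cells, at a mean of 5847 TPM. Arhgap36, an activator of Hedgehog signalling, ran the other way between the picked batches, at 64.1, 20.3 and 13.2 TPM, and the linker histone gene Hist1h1c was highest in batch 3, at 71.8, 84.5 and 262 TPM, where 2 cells held 1555 and 1200.45 TPM. Angptl7, a secreted angiopoietin-like protein, averaged 11.4, 38.6 and 38.6 TPM and was read in 1 of 45 α cells. Rasd1, a Ras-related protein induced by steroid hormone, averaged 158, 131 and 157 TPM and was read in 63 of the 65 cells. Arc and Fosb, both immediate early genes, completed the list with distances of 1.95 and 1.94.

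**Figure D3:**
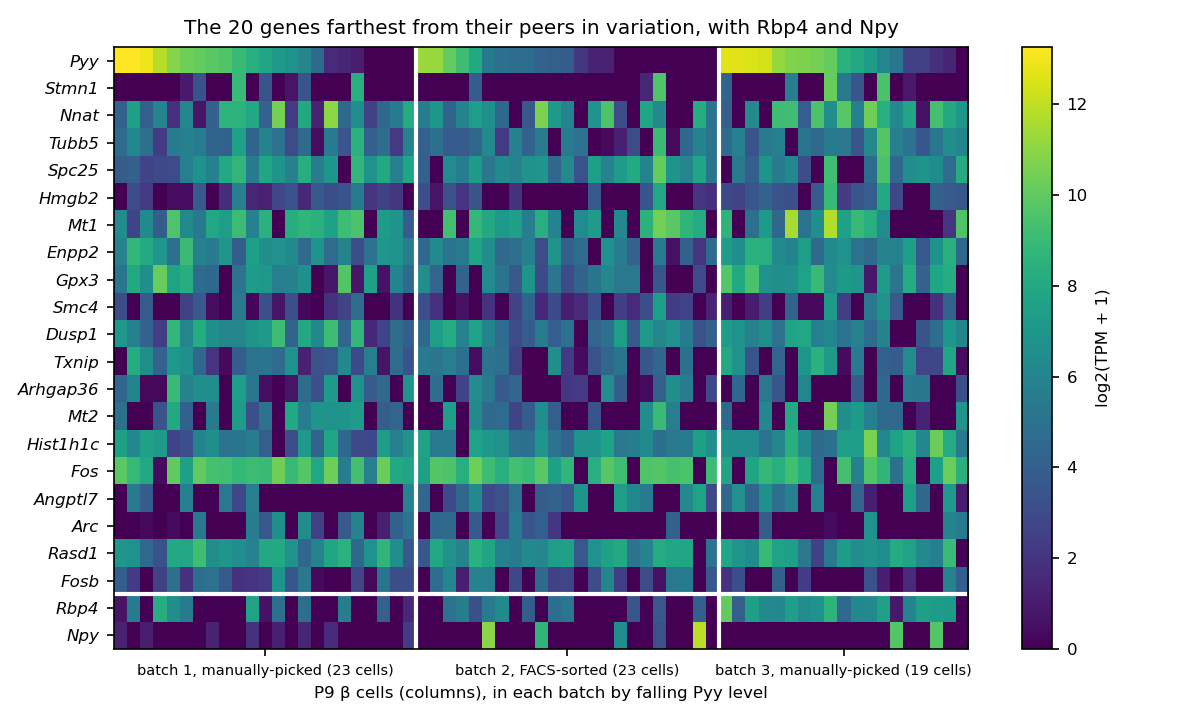
Heat map of log2(TPM + 1) for the 20 most variable genes and for Rbp4 and Npy (rows) in the 65 P9 β cells (columns), split by batch and ordered by Pyy within a batch. Mt1 and Mt2 share their bright columns, and Stmn1 is bright in 5 cells.

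Dividing cells were counted as those with at least 10 reads for at least 4 of 12 mitosis genes. There were 5 such cells of 65 (7.69%, exact 95% binomial interval 2.54% to 17.0%), 2 in batch 1, 1 in batch 2 and 2 in batch 3. Another 40 cells had none of the 12 genes at 10 reads, 15 had 1 and 5 had 2, so the 5 cells stood apart from the rest. Asking for 1 read in place of 10 gave 16 cells (24.6%). The same count was 10 of 88 at P3 (11.4%) and 4 of 57 at P15 (7.02%), values given side by side without a test, since cells of a batch are not replicates of a stage.

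The 5 cells still held insulin as 30.8% to 43.6% of their reads and Ucn3 at 55.8 to 369 TPM. They differed in which cycle genes were high. The cell of batch 2 had all 12 genes, with Mki67, the proliferation antigen, at 72.1 TPM, Top2a, which untangles replicated DNA, at 284 TPM, the mitotic cyclin Ccnb2 at 234 TPM and the anaphase activator Cdc20 (exons overlapping Elovl1) at 393 TPM. One cell of batch 3 resembled it, with 290 TPM of Ccnb2, and the other carried the highest Cdc20, 1289 TPM, with Top2a at 0.36 TPM. Both cells of batch 1 had no read of Ccnb2 but held Mcm3, a subunit of the replication helicase, at 64.1 and 141 TPM, whereas the cells of batches 2 and 3 held at most 0.26 TPM of it. Counting the 6 helicase genes Mcm2 to Mcm7 in the same way found 6 cells with at least 4 of them, 5 in batch 1, 1 in batch 2 and 0 in batch 3, of which 3 were also among the 5. All 6 helicase genes reached 10 reads in 5 cells, each in batch 1. This helicase count was added after the values were seen.

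**Figure D4:**
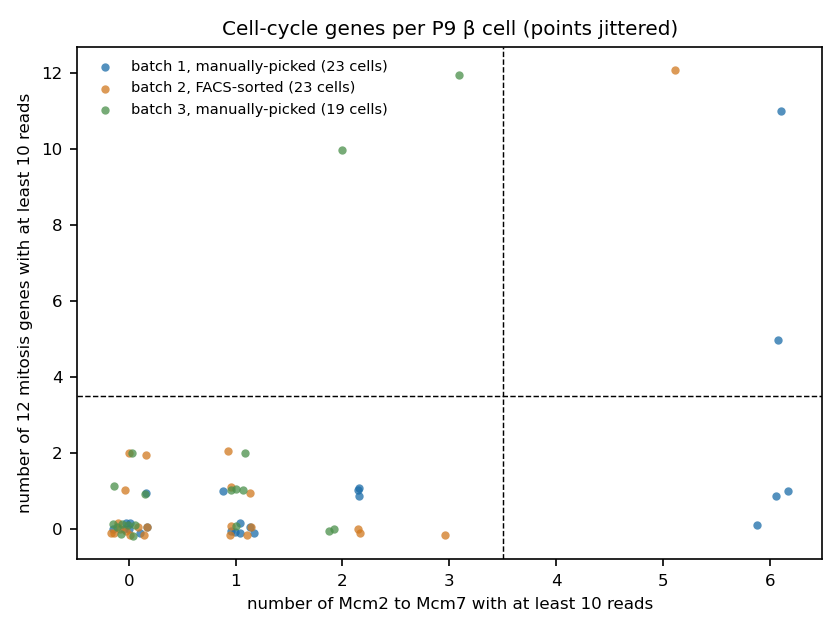
Number of the 12 mitosis genes with at least 10 reads against the number of the 6 helicase genes Mcm2 to Mcm7 with at least 10 reads, with 1 point per P9 β cell coloured by batch. Most of the 65 cells lie near the origin, and the cells with 10 to 12 mitosis genes are split between few and many helicase genes.

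The leading principal components of the cells each carried a small share of the variance, and the share that noise alone would give was not tested. The first principal component of the 3937 genes carried 3.25% of the variance and the second 3.19%. Stmn1, Mt1, Hmgb2, Mt2, Smc4, Cbx5 (heterochromatin protein 1α), Cks1b (a cyclin-dependent kinase subunit) and Dnajc9 (a histone co-chaperone) loaded at one end, and Hbp1, Vdr (the vitamin D receptor), Muc4, Baiap3, Rgs11, Il6ra, Herc1 and Tmod1 at the other. Along the component the Spearman coefficient was −0.36 with the number of genes read, 0.42 with the insulin share and 0.10 with the number of reads, over 65 cells of 3 batches.

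The next values compare the P9 batches with neighbouring stages, using summaries over the cells of a batch. The insulin share of reads was 46.9% ± 3.56 at P9 (SD, n = 3 batches), 36.9% ± 3.43 at P3 (n = 5) and 46.8% ± 1.47 at P15 (n = 3). All P9 batches lay above all P3 batches (exact two-sided permutation p = 0.0179, the smallest that 3 against 5 batches allow, and 0.143 adjusted over the family of 8 tests). With the reads of a batch pooled the shares were 48.8%, 47.3% and 40.5% at P9, and batch 3 then fell below the highest P3 batch (42.5%), with an exact permutation p of 0.0536. Against P15 the exact permutation p was 1. Genes read per cell, after thinning to 500000 reads, were 6950 ± 142 at P9, 7262 ± 251 at P3 (adjusted exact permutation p = 0.4) and 6983 ± 325 at P15 (adjusted exact permutation p = 1). The median Spearman coefficient between thinned cells of a batch, averaged over batches, was 0.471 ± 0.0150 at P9, 0.490 ± 0.0228 at P3 and 0.481 ± 0.0233 at P15. Neither difference passed (adjusted exact permutation p = 0.457 and 0.933). The smallest p for 3 against 3 batches is 0.1, so no comparison with P15 could pass 0.05.

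Gene by gene, reads were summed per batch and tested with edgeR's quasi-likelihood test over all 25 β-cell batches, with the collection method in the model and Benjamini-Hochberg adjustment over 16107 genes. Stage levels below are CPM after TMM scaling, not corrected for length, and differences are P9 minus the other stage in log2. Because the batches sum few cells, a gene high in a few cells can set a batch. The 4 comparisons share the P9 batches and so are not independent of each other.

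Against P3, 4 genes passed at an adjusted p under 0.05 (0.0248%): 3 higher (0.0186%) and 1 lower (0.00621%) at P9. The largest rise was that of Mt1, with 134, 151 and 214 CPM in the 3 P9 batches and 14.7, 11.0, 9.99, 16.2 and 23.4 CPM in the 5 P3 batches. Every P9 batch was above every P3 batch, with a log2 difference of 3.59 (SE 0.346, edgeR adjusted p = 9.42e-06). Zdhhc2, a palmitoyltransferase (exons overlapping Cnot7), stood at 111, 162 and 161 CPM against 55.7, 48.1, 55.0, 67.7 and 51.4 CPM, a difference of 1.39 (SE 0.205, edgeR adjusted p = 0.00604). Creg1, a lysosomal glycoprotein, stood at 146, 162 and 121 CPM against 80.1, 82.2, 74.3, 76.8 and 88.1 CPM, a difference of 0.85 (SE 0.143, edgeR adjusted p = 0.0248). Iqcg, a gene of cilia and flagella, had no read at P9 and 2.19 CPM at P3, which is at least 55.1-fold lower with a floor of 3 reads over the P9 group. In P9 and P3 batches of one collection method alone, Mt1 missed the threshold in FACS-sorted as in manually-picked batches. Its log2 difference stayed between 3.03 and 3.80 over its 17 alternatives, and the edgeR, DESeq2 or limma adjusted p ran from 1e-04 or less to 0.0950, its value in manually-picked batches. Zdhhc2 missed the threshold in 6 of 17 alternatives (without P9 batch 2 or 3 among them), Creg1 in 11 and Iqcg in 12. With a replicate block the edgeR adjusted p was 0.162 for Creg1 and 0.118 for Iqcg, and without the method covariate it was 0.0730 for Iqcg. Creg1 also missed it without P9 batch 1 or 2 or P3 batch 1, 2, 3 or 4, and Iqcg when any 1 P9 batch or P3 batch 1, 3 or 4 was left out.

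None of these 4 genes belonged to the 16 gene lists, so no list held a called gene against P3. In the β-cell function list 0 of 20 passed in edgeR and 3 in DESeq2 (2 higher, 1 lower), with a median log2 difference of 0.34 against 0.00 over all genes, and 13 of the 20 had an unadjusted p under 0.05. Over all 16107 genes 1243 had an unadjusted p under 0.05, and DESeq2 called 146. Ucn3 measured 446, 742 and 447 CPM at P9 and 348, 340.2, 186, 405 and 375 CPM at P3, with a log2 difference of 0.80 (SE 0.267, edgeR adjusted p = 0.468), and the batches did not overlap. Mt2 measured 36.2, 28.7 and 56.0 CPM against 0.872, 0.959, 1.42, 1.17 and 6.53 CPM, a difference of 4.61 (SE 0.868, edgeR adjusted p = 0.0790). Neither passed. In batch means of log2(TPM + 1), limma called 11 genes higher and 85 lower at P9, a scale on which the median of all genes was −0.15.

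Against P15, edgeR called 0 genes (0%), with 920 at an unadjusted p under 0.05, and DESeq2 called 79, 54 higher and 25 lower at P9. The immature list had the largest median, 2.09 against 0.02 over all genes, with 0 of 16 called by edgeR, 3 called higher by DESeq2 and 6 at an unadjusted p under 0.05. Rbp4 was 4.25 higher on the log2 scale (edgeR adjusted p = 0.243) and spread over 52.0, 21.1 and 171 CPM at P9 and 4.69, 7.13 and 0.473 CPM at P15. The uneven P9 batches, described for Rbp4 above, sit beside this result, and their part in it was not tested.

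Against E17.5, 415 genes passed (2.58%), 286 higher (1.78%) and 129 lower (0.801%) at P9. Hormone and granule genes were higher: of the 20 β-cell function genes 11 passed as higher and 1 as lower (median 0.66), and of the 16 granule genes 8 as higher and 0 as lower (median 0.51), against a median of −0.01 over all genes. The β-cell function list kept 9 to 11 higher calls when single batches were left out, but had 2 with all 45 batches in the fit, and the granule list had 5 without E17.5 batch 1 or P9 batch 2. In batch means of log2(TPM + 1) these medians were −0.29 and −0.39, where the median of all genes was −0.40 and limma called 202 genes higher and 5072 lower, so both lists then lay close to the rest, and Slc30a8, Ero1lb and Scg2, which edgeR counted as higher, turned lower. Ucn3 held 446, 742 and 447 CPM at P9 and 31.2, 58.4 and 68.5 CPM at E17.5, a difference of 3.36 (SE 0.331, edgeR adjusted p = 2.04e-06). Chga held 10724, 11789 and 7792 CPM against 1838, 2053 and 2589.8 CPM, a difference of 2.23 (SE 0.191, edgeR adjusted p = 2.73e-07). In both genes the lowest P9 batch exceeded the highest E17.5 batch.

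Other called members rose with them. The granule peptide genes Pcsk1n, which encodes proSAAS (exons overlapping Eras), and Resp18 (exons overlapping Gm28902) rose by 2.26 and 3.23 in log2, Prlr by 2.85, Glp1r by 1.99, G6pc2 by 1.64, Ins1 by 1.64, Ins2 by 1.54 and Iapp by 1.05. Dio1 rose from 6.10, 6.90 and 4.06 CPM to 20.7, 51.9 and 49.8 CPM, by 2.82 (SE 0.372, edgeR adjusted p = 8.89e-05). None of the 18 transcription factors tested passed in edgeR (median −0.39), where 6 had an unadjusted p under 0.05, and DESeq2 called 2, both lower. Over all 16107 genes these counts were 2378 and 944.

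The 8 largest rises that did not overlap between batches took in a steroid enzyme and the metallothioneins. Akr1c14, a hydroxysteroid dehydrogenase (exons overlapping Gm18857), held 66.3, 39.6 and 75.4 CPM at P9 and 0.107, 0.614 and 0.257 CPM at E17.5, a difference of 7.21 (SE 0.464, edgeR adjusted p = 3.70e-09). Mt1 differed by 4.75 (SE 0.440, edgeR adjusted p = 7.70e-07) and Mt2 by 5.89 (SE 1.11, edgeR adjusted p = 0.00335). Angptl7 went from 2.48 to 66.9 CPM, Slco1a6, an organic anion carrier, from 0.840 to 37.3 CPM, Ina, a neuronal intermediate filament gene (exons overlapping Nt5c2), from 0.588 to 22.4 CPM and Dapl1 from 0.0963 to 21.5 CPM. The mitotic gene Ckap2l (exons overlapping Gm14024) stood at 20.7 ± 19.7 CPM at P9 (SD, n = 3) with 1 read at E17.5. In the proliferation list 4 of 43 genes rose and 0 fell (median 3.09, and 0.23 in log2(TPM + 1), where 0 rose and 1 fell). The count of risen genes was 1 without E17.5 batch 1 or 2 or P9 batch 2 or 3, 0 with manually-picked batches alone and 15 with no low-count filter. At P9 the counted mitosis genes were concentrated in the 5 dividing cells described above.

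Genes of the immature list and Nnat were among those that fell from E17.5. Dlk1, an imprinted Notch-like ligand, held 13.5, 4.11 and 8.67 CPM at P9 and 448, 461 and 419 CPM at E17.5, a difference of −5.68 (SE 0.876, edgeR adjusted p = 4.61e-04). Nnat held 358, 295 and 387 CPM against 8417, 5966 and 6871 CPM, a difference of −4.37 (SE 0.617, edgeR adjusted p = 1.94e-04). In the immature list 3 of 16 genes fell and 0 rose (median −2.24), with the amino acid carrier Slc38a5 (−3.68) and Rbp4 (−3.48) beside Dlk1. The count was 1 without E17.5 batch 1, without P9 batch 2 and in manually-picked batches alone. Gip, the incretin peptide, went from 20.5 to 0.0135 CPM, the corticotropin-releasing hormone receptor Crhr2 from 45.2 to 0.0814 CPM and the microsomal glutathione transferase Mgst1 from 20.6 to 0.0142 CPM, and Cacna1h, a T-type calcium channel (exons overlapping Tpsg1), from 24.0 CPM to no read, at least 604-fold lower. Wfikkn2, a secreted protease inhibitor, the RNA-binding gene Igf2bp1 and Higd1a, a hypoxia-induced mitochondrial gene, completed the 8, at 0.567, 0.823 and 0.918 CPM at P9 against 34.6, 30.0 and 25.2 CPM. Several of these falls were not stable. For Cacna1h the edgeR adjusted p was 0.0466, and it missed the threshold when any 1 P9 or E17.5 batch was left out. Over 15 alternatives Cacna1h missed it in 10, Wfikkn2 and Igf2bp1 in 7 each, Mgst1 in 5, Higd1a in 3, Gip in 2 and Crhr2 in 1. Folding genes also fell: 6 of 23 were lower and 2 higher (median −0.52), and the lower calls numbered 3 when any 1 E17.5 batch or P9 batch 3 was left out, 2 without P9 batch 2 and 0 in FACS-sorted batches alone. In this list Pdia4, a disulfide isomerase, stood at 246, 235 and 249 CPM against 646, 725 and 849 CPM, a difference of −1.61 (SE 0.241, edgeR adjusted p = 3.48e-04), and Hspa5 at −0.97. The higher ones, Ero1lb and Atf4, turned lower in log2(TPM + 1).

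Against P60, 180 genes passed (1.12%), 133 higher (0.826%) and 47 lower (0.292%) at P9. The immature list was higher in 7 of 16 genes and lower in 0 (median 2.63 against 0.00 over all genes), with 5 to 7 higher when single batches were left out, 4 with a replicate block and 3 in batches of either collection method alone. Slc38a5 held 50.5, 55.9 and 11.9 CPM at P9 and 1.79, 0.0787, 0.513, 1.13 and 0.732 CPM in the 5 P60 batches, a difference of 5.42 (SE 0.751, edgeR adjusted p = 4.57e-04). Nnat held 358, 295 and 387 CPM against 35.9, 49.2, 18.2, 8.95 and 38.6 CPM, a difference of 3.46 (SE 0.492, edgeR adjusted p = 6.21e-04). These were the 2 genes of 40 described or listed for this comparison that passed in each of the 17 alternative analyses. Pyy held 1152, 195 and 881 CPM against 5.07, 1.73, 20.7, 0.846 and 0.0523 CPM, a difference of 6.93 (SE 1.34, edgeR adjusted p = 0.0107). Igf2bp3, an RNA-binding protein of fetal tissue, differed by 5.20, Dlk1 by 4.32, Fev, a serotonergic factor, by 6.63 and Rbp4 by 3.22.

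Proliferation genes were higher at P9 than at P60 in 12 of 43 and lower in 0 (median 3.58). Mki67 held 14.6, 41.0 and 82.5 CPM against 0.131, 0, 7.44, 1.27 and 1.52 CPM, a difference of 4.50 (SE 1.06, edgeR adjusted p = 0.0371). In this list the count depended on the batch: without P9 batch 3, 1 of the 43 passed, and with manually-picked batches alone 0 did. The largest rises without overlap were Cdc20, Ckap2l, Pyy, Ckap2 and Tpx2 (both spindle proteins), Slc38a5, Mki67 and Cd24a, a surface protein of immature cells, from 4.45 to 7.56 in log2. Oat, of the disallowed list, was also higher at P9, at 48.5, 31.4 and 27.9 CPM against 2.49, 0.0787, 5.64, 0 and 2.67 CPM, a difference of 4.00 (SE 0.810, edgeR adjusted p = 0.0131).

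Of the 47 genes lower at P9 than at P60, 3 were granule genes. Eno2, neuronal enolase, held 8.11, 15.1 and 10.0 CPM at P9 and 66.8, 65.9, 41.5, 62.3 and 78.7 CPM at P60, a difference of −2.50 (SE 0.325, edgeR adjusted p = 2.17e-04). Syt4, a synaptotagmin (exons overlapping Gm26658), held 8.68, 42.9 and 20.7 CPM against 153, 110.2, 167, 157 and 128 CPM, a difference of −2.65 (SE 0.427, edgeR adjusted p = 0.00231). Rgs2, a brake on G-protein signals, held 5.34 ± 5.03 CPM (SD, n = 3) against 153 ± 100.2 CPM (n = 5), a difference of −4.97 (SE 0.824, edgeR adjusted p = 0.00307). Scg2 differed by −1.28, and with Scg3 (−0.65) and Scg5 (−0.60) it made 3 of 16 granule genes lower and 0 higher (median −0.34). The count was 1 when any 1 P9 batch or P60 batch 4 or 5 was left out, and with a replicate block. The serpin gene Serpina10 (−2.26), the actin-severing gelsolin Gsn (−2.23), the class I light chain B2m (−2.04), the kinase gene Cdk14 (−1.94) and Nupr1, a stress gene at 0.0827 CPM against 30.1 CPM, were the others of the 8. For B2m the edgeR adjusted p was 0.0499, and it missed the threshold when any 1 P9 or P60 batch was left out. Over 17 alternatives B2m missed it in 12, Cdk14 in 6, Gsn in 4, Serpina10 in 3 and Nupr1 in 2. The β-cell function list had 0 higher and 1 lower of 20, Ero1lb at −0.78, and 0 lower without P9 batch 1 or 3, without P60 batch 1 or 3 and with a replicate block.

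**Figure D5:**
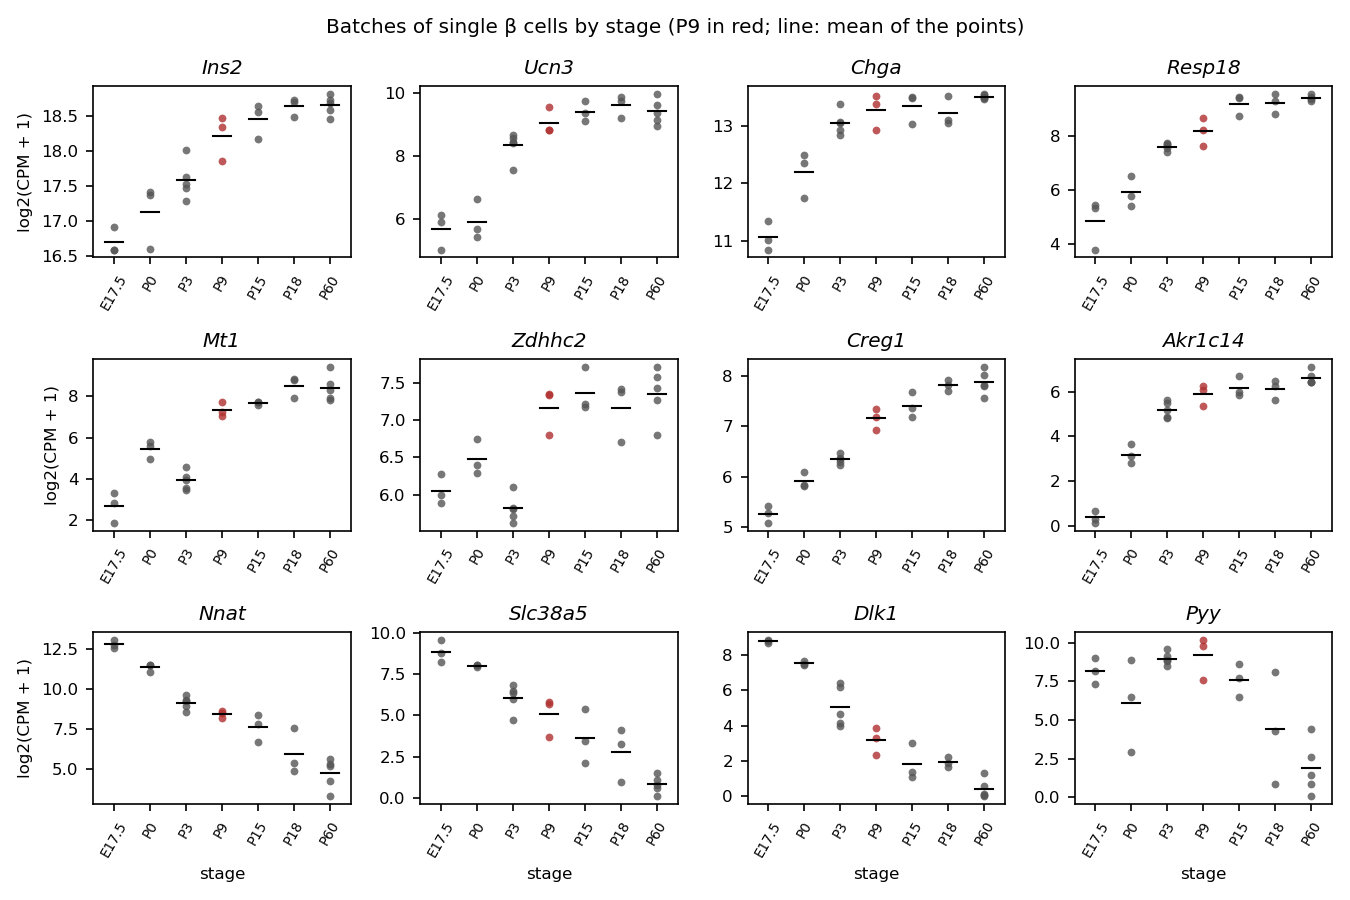
Levels of 12 genes in every β-cell batch by stage, as log2(CPM + 1) of the summed reads, with the P9 batches in red. The P9 batches of Mt1, Zdhhc2 and Creg1 lie above the P3 batches, those of Akr1c14 and Ucn3 above E17.5, and those of Slc38a5, Nnat and Dlk1 between E17.5 and P60.

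Set beside the bulk libraries of the same stage, the single cells gave a larger share to insulin. In the 2 bulk libraries Ins2 stood at 93792 and 72602 CPM and Ins1 at 44635 and 38846 CPM. Ucn3 stood at 229 and 264 CPM, Nnat at 222 and 172 CPM, Pyy at 1055 and 861 CPM and Mt1 at 115 and 62.7 CPM. Bulk levels average over cells, so the spread of Pyy, Nnat and Mt1 described above is not visible in them, and fewer cells with a gene cannot be told apart there from less of it per cell. Bulk libraries were made with another protocol and held acinar RNA, so the values stand side by side without a test.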

How the data were processed

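Single-cell libraries followed the Smart-seq2 protocol and bulk libraries a strand-specific poly(A) kit, per the labels' protocols. The submitters' processing notes name TopHat2 2.1.0, HTSeq 0.6.0 and DESeq 1.20.0 with the builds GRCm38 and mm10; their roles and the strand setting are not given in the sources used here. The authors deposited read counts per gene (40824 gene rows and 92 spike-ins) and TPM, and 100% of the P9 TPM values followed from the deposited counts and gene lengths (tolerance 0.006 TPM plus 0.1%), with spike-ins in the total. TPM of α cells was computed from counts and lengths without spike-ins. Because 63 symbols are shared by several rows, rows were joined by identifier.

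From the counts, reads were summed per batch and tested with edgeR 4.0.16 (TMM scaling, quasi-likelihood test, 25 β-cell batches, stage groups and collection method, 16107 genes after the count filter, common dispersion 0.491, Benjamini-Hochberg adjusted p under 0.05), with DESeq2 1.42.0 and limma 3.58.1 on log2(TPM + 1) as alternatives in R 4.3.3. Variation used genes of at least 20 CPM in each batch and a running median over 101 genes. Shares carry exact 95% binomial intervals, and a gene at 0 was given a floor of 3 reads over the group. Where no cell had a read, the bound is 3 over the number of cells, an approximate 95% bound. Batch summaries were compared by exact permutation tests, two-sided. Python 3.11.15 with numpy 2.4.6, pandas 2.3.3 and scipy 1.17.1 was used, and the testing and variation steps were tested on simulated data. Promoters come from the RefSeq table of GRCm38.p6, which held no match for Ins2.

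The members and the gene lists were chosen with earlier results of these data known. Named genes are Ins1, Ins2 and Ucn3, the 12 highest by TPM, the 20 most variable, the 8 largest rises and falls per comparison (at least 20 CPM in the higher group, batches not overlapping), in each list the highest, the most and least variable, up to 4 called members of at least 5 CPM and the best-known one, the 8 genes at each end of the first component and the 5 most like Ucn3. Mitochondrial, ribosomal and predicted genes (symbols mt-, Rpl, Rps, Gm with digits or ending in Rik) were left out of these ranks. Other list members, and Gip, Sst, Gcg and Ppy, were named after their values were seen. The comparisons with E17.5 and P60, the fits on batches of 1 collection method and the helicase count were added after values were seen. A few list members are not reported here by name, nor are their values under the alternatives, although they are counted in their lists.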

Additional observations from a re-analysis of the deposited data

Results flagged for a closer look

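In groups of 5 batches, a batch whose gap to its nearest neighbour is large for the range of the group was marked. Chance marks about 1 in 20 groups of independent, normally spread values, which CPM values of genes in the same libraries need not be. The count of marks is therefore not set against that rate. In all, 23 groups were checked and 6 were marked. Of these, 5 were the same library, P60 batch 3, which was the highest of the P60 batches for Pyy (20.7 CPM, nearest batch 5.07), Mki67 (7.44, nearest 1.52), Tpx2 (2.20, nearest 0.499), Ckap2 (1.39, nearest 0.0787) and Ckap2l (0.659, nearest 0). All 5 values lay far below the P9 means of those genes, and without P60 batch 3 the comparison of P9 with P60 called 154 genes in place of 180. The sixth was gelsolin, Gsn, at 100.5 CPM in P60 batch 2 (nearest batch 73.3). In data outside the main measurement, the P9 batch enriched for proliferating cells held 6 of 13 cells with at least 4 mitosis genes (46.2%, exact 95% binomial interval 19.2% to 74.9%), against 5 of the 65 unselected cells (7.69%). That batch was chosen for proliferation, so its share describes the enrichment.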

How the results depend on the processing

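Counts of called genes moved with the tool, the filter and the collection method of the batches; the cause was not tested, except that fits on fewer batches have fewer samples. Against P3 (4 genes) the count was 35 with no low-count filter, 1 with all 45 batches in the fit, 0 with manually-picked batches alone (899 at an unadjusted p under 0.05), 146 with DESeq2, 96 with limma and 3 with a replicate block, and 1 to 6 when single batches were left out (2 without P9 batch 1 or P3 batch 1, 1 without P9 batch 2). Against P15 (0 genes) it was 19, 3 with all 45 batches, 1 with no method covariate, 47 with FACS-sorted batches alone (45 higher, 2 lower), 79 with DESeq2, 3 with limma and 0 with a block, and 0 to 2 with single batches left out (2 without P15 batch 3). Against E17.5 (415) it was 633, 232 with all 45 batches, 93 with FACS-sorted and 153 with manually-picked batches alone, 944 with DESeq2, 5274 with limma and 404 with a block, and 197 to 340 with single batches left out (197 without P9 batch 2, 244 and 275 without E17.5 batches 1 and 3). Against P60 (180) it was 365 with no low-count filter, 116 with all 45 batches, 19 with FACS-sorted and 20 with manually-picked batches alone, 545 with DESeq2, 224 with limma (87 of them among the 180) and 93 with a block, and 60 to 154 with single batches left out (60 without P9 batch 3, 113 without P9 batch 2, 102 and 112 without P60 batches 4 and 5). Batches with the same number did not deviate together (correlations −0.0308 to 0.0469), so the numbers were not read as pairs. Genes called in every alternative numbered 9 of 60 against E17.5 (Akr1c14, Mt1, Dlk1, Chga, Ucn3, Pcsk1n, Resp18, Dio1 and Nnat), 2 of 40 against P60 (Slc38a5 and Nnat) and 0 of 4 against P3. In limma on log2(TPM + 1) against E17.5, 6 called genes turned to the lower side: Slc30a8 (−0.32), Ero1lb (−0.27), Scg2 (−0.0174), Snap25 (−0.0673), Racgap1 (−0.22) and Atf4 (−0.38). The difference in insulin share from P15 was −0.793 percentage points with reads pooled per batch and −1.29 to 2.11 with single batches left out. The difference in genes read per cell was 173 when 10 reads were asked for and −89.8 to 46.7 with single batches left out. The 61 variable genes became 112 against the spike-in trend, 110 and 35 with minimums of 5 and 50 CPM, 87 with insulin left out of the total, and 120 to 128 with single batches left out. Of the 61, 55, 58, 33 and 56 were found again in turn, and 60 without any 1 batch. Cells with mitosis genes were 16 when 1 read was enough. Depth limits the genes below about 10 reads per cell: 5206 of 19365 genes reached that in 33 cells or more.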
